A study of Mus musculus with 8 samples.

Results

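The genes described here are those of the tumor necrosis factor (TNF) superfamily and of the NF-κB pathway, as expressed by the murine stromal cell line mSSC. They were picked by symbol among the listed genes: ligands (Tnfsf genes), receptors (Tnfrsf genes, Ltbr, Fas, Eda2r), adaptors (Traf genes, Tradd, Fadd), kinases and ubiquitin ligases, NF-κB subunits, IκB proteins and feedback regulators. The ligand gene Tnfsf13b was left out of this choice. The table deposited by the authors lists 12589 genes, of which 53 match, out of 72 annotated mouse genes whose symbol fits the rule. The other 19 had no level here, and how the authors filtered low values is not given in the sources used here. The samples are cultures of mSSC-YFP, a line of spleen stromal cells that carries YFP, so that all values come from 1 line. No leukemic cells are named in the labels of these cultures. According to the labels 4 cultures received BMS493, an inhibitor of retinoic acid (RA) signaling, and 4 received the vehicle DMSO, each for 48 h.

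What was analysed is 1 value per gene, the authors' mean log2 normalized expression across all cultures, so that cultures with BMS493 and with DMSO enter every value together. Single cultures were not analysed, the depth of each library is unknown, and neither an SD nor a test can be attached to a level. The columns that hold the authors' own comparison of BMS493 with DMSO were not used, and no difference between the treatments is given. To set genes side by side, the authors' mean was divided by the length of all annotated exons of the gene, and "level" stands for the resulting log2 normalized expression per kb. As a measure of how firm an order is, the level was also computed per kb of the transcript that the APPRIS annotation marks as principal, of the longest transcript and of the median transcript length. For the members the principal transcript moved the level by a median of 0.36 and by at most 3.37 on the log2 scale.

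Ligands of the TNF superfamily are trimeric proteins on the cell surface or released from it. Their receptors either carry a death domain, which binds adaptors such as TRADD and FADD, or recruit TRAF adaptors directly. In the canonical branch the IκB kinase (IKK) complex of Ikbkb, Chuk and Ikbkg has IκB degraded and frees dimers that contain RelA. In the alternative branch the kinase NIK, product of Map3k14, and IKKα, product of Chuk, act on the Nfkb2 precursor and release dimers that contain RelB. Stromal cells of lymphoid organs are known for the alternative branch, because lymphotoxin from lymphocytes acts on their LTβR, encoded by Ltbr, during the formation of follicles.

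NF-κB activates several genes of its own pathway, and the sequences before their starts carry sites for it. The windows printed here are the 100 bases before a listed start of 6 such members, from RefSeq on GRCm38.p6, 5′ to 3′ on the gene's strand. Capitals mark matches, on either strand, to a simplified κB motif of GGGA, any 4 bases and CC. These 6 were chosen after the matches were seen, because each has a match close to its start.
Nfkbia: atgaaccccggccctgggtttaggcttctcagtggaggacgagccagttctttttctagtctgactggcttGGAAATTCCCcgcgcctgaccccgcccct
Nfkb2: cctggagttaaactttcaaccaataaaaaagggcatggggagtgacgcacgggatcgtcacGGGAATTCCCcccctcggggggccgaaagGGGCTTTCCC
Rel: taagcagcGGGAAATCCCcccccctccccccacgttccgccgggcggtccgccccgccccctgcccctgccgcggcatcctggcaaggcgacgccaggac
Birc3: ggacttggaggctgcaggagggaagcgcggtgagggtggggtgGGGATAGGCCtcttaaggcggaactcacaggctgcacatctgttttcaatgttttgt
Tnfaip3: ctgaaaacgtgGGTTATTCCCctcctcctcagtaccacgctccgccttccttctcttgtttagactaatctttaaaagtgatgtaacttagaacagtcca
Tnip1: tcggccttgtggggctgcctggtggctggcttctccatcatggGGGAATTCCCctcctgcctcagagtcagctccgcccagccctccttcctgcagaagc

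The window of Nfkbia, which encodes IκBα, is chr12:55492648-55492747 on the minus strand, and that of Nfkb2 is chr19:46304637-46304736 on the plus strand, with 2 matches. The other windows, all on the minus strand, are chr11:23770970-23771069 for Rel, chr9:7873171-7873270 for Birc3, chr10:19011964-19012063 for Tnfaip3 and chr11:54962941-54963040 for Tnip1. The Tnfaip3 window lies before the downstream one of its 2 listed starts.

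As a whole the members were expressed much like other genes of the table. Their median level was 2.61, against 2.87 over the 11771 genes with a length. Of the 53 members 22 lay above the median of all genes. Above percentile 75 lay 11, and 10 lay below percentile 25. The levels ran from -2.44 for Tnfrsf11a to 6.33 for Tnfrsf12a. The plot of level by role shows that most of this range lies among the receptors.

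**Figure D1:**
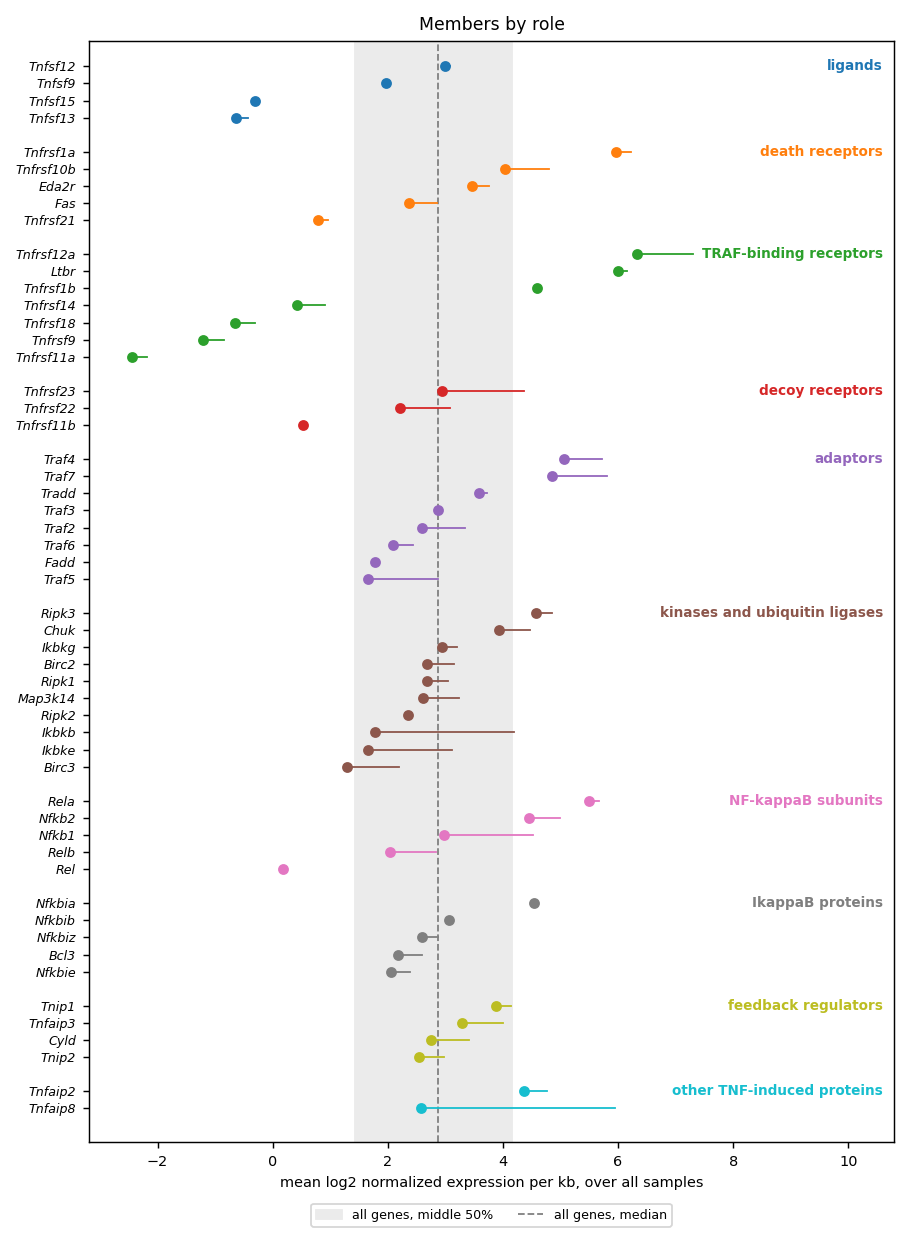
Level of each of the 53 members (x axis, mean log2 normalized expression per kb over all samples) by role; dots use all annotated exons, and lines reach to the levels per kb of the longest and the principal transcript. Receptors span from -2.44 to 6.33, whereas every IκB protein lies between 2.06 and 4.54.

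**Figure D2:**
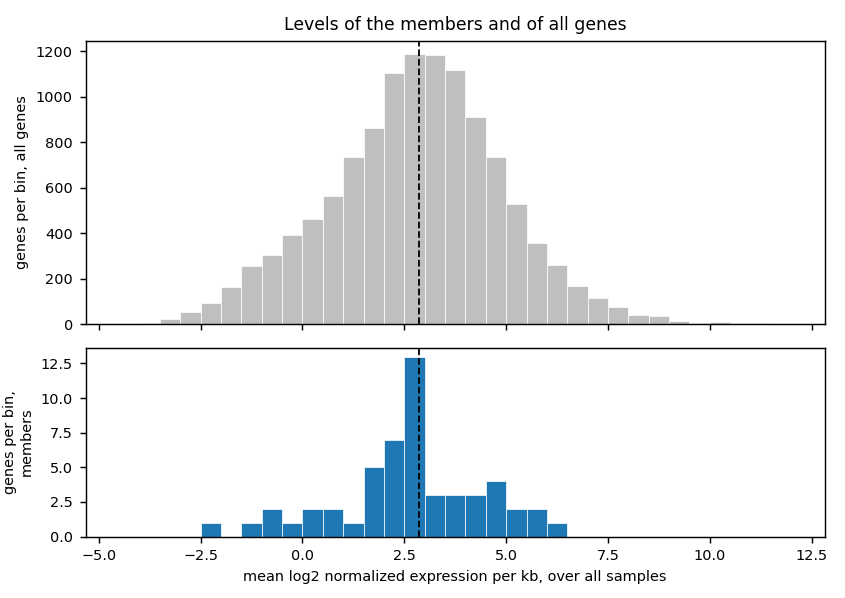
Number of genes in bins of 0.5 log2 units of level, for all 11771 genes with a length (top) and for the 53 members (bottom), with the median of all genes, 2.87, as a dashed line. The members gather around that line and none lies above 6.33.

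The stromal label was checked against marker genes. All 10 markers of fibroblastic stroma had a level, with a median of 6.37, led by Col1a1 (10.57), Vim (9.54) and Col1a2 (8.84). The platelet-derived growth factor receptors were lower, 3.99 for Pdgfrb and 1.92 for Pdgfra. Of 12 leukocyte markers 1 had a level, Cd68 with 1.03, and of 5 endothelial markers the 2 with one, Kdr and Pecam1, lay at -0.34 and -2.17. Among 4 epithelial markers, Krt8 (0.58) and Krt18 (-0.21) were low, but Cdh1, which encodes E-cadherin, was at 5.83, percentile 92.9 of all genes.

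Per kb of all exons, receptors for TNF, lymphotoxin and TWEAK had the highest levels of all members. Tnfrsf12a, which encodes Fn14, the receptor for TWEAK, is a gene of chromosome 17 (23675445 to 23677468, GRCm38). Its level was 6.33, and 7.30 per kb of the principal transcript. Ltbr, on chromosome 6 from 125306571 to 125313885, followed 0.33 lower, with 6.16 per kb of the principal transcript. Tnfrsf1a, which encodes TNFR1, the receptor for TNF that most cell types carry, was almost equal to Ltbr, with 5.96 and 6.22. These 3 receptors stood at percentiles 93.5 to 95.4 of all genes. Ltbr and Tnfrsf1a also lie on the same chromosome, 35.5 kb apart, and which of them is higher depends on the length used. Tnfrsf12a was the highest member per kb of all exons, of the longest and of the principal transcript, but not with the median transcript length, where Ltbr exceeded it by 0.74 and Tnfrsf1a and the adaptor gene Traf7 also passed it. Before division by length Traf7 had the highest mean of all members, 7.40.

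The second receptor for TNF, TNFR2, is encoded by Tnfrsf1b. Its level was 4.59, at percentile 81.1. Of the genes grouped as death receptors, Tnfrsf10b, the mouse receptor for TRAIL, had a level of 4.03. Eda2r, the receptor for the A2 form of ectodysplasin, had 3.45 and was placed in this group although its product lacks a death domain. Fas reached 2.37 and Tnfrsf21, or DR6, 0.79. Thus 3 of the 5 genes with a level in this group, Eda2r among them, lay above the median of all genes.

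Of the 14 receptors without a death domain that were grouped as TRAF-binding, which leaves out Eda2r, 7 had a level. Cd40, Tnfrsf4, Tnfrsf8, Tnfrsf13b, Tnfrsf13c, Tnfrsf17 and Tnfrsf19 had none. Besides Tnfrsf12a, Ltbr and Tnfrsf1b, the other 4 were low. Tnfrsf14 (HVEM) had a level of 0.42, Tnfrsf18 (GITR) -0.66 and Tnfrsf9 (4-1BB) -1.21. Tnfrsf11a, which encodes RANK, had the lowest level per kb of all exons among the members, -2.44, at percentile 0.748. These 4 lay below percentile 25 of all genes, and on the authors' scale per gene, before division by length, their means were between -0.05 and 0.94. The lowest mean of any listed gene was -0.58, so that these receptors stand near the bottom of the table. Their order was not firm: Tnfrsf18 and Tnfrsf11a were 1.78 apart per kb of all exons and changed places with the median transcript length. Exons of Tnfrsf18 share 27.2% of their bases with an antisense transcript, Gm16008. The libraries were stranded, but whether strand was used in counting is not given in the sources used here.

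Decoy receptors take up ligand without passing a death signal. Of 4 such genes Tnfrsf26 had no level. Tnfrsf11b, which encodes osteoprotegerin, the secreted decoy for RANKL, had a level of 0.52. Tnfrsf23 and Tnfrsf22, mouse decoys for TRAIL, had 2.94 and 2.21. Tnfrsf23 exceeded Tnfrsf22 under each of the 4 lengths, by 0.73 to 1.55. The 2 genes lie 16.1 kb apart on chromosome 7 and share sequence. Of all 100-base windows in their transcripts, 15.8% for Tnfrsf22 and 9.31% for Tnfrsf23 also occur in another gene, most often in the other one of the pair. Uniquely mapped reads were counted, so both levels are uncertain.

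Ligands, with Tnfsf13b left out, were the role with the lowest share of genes with a level, 4 of 12. Tnf itself, Ltb, and Tnfsf4, Tnfsf8, Tnfsf10 (TRAIL), Tnfsf11 (RANKL), Tnfsf14 (LIGHT) and Tnfsf18 had none. Tnfsf12, which encodes TWEAK, the ligand of Fn14, was the highest with 3.00, close to the median of all genes. Tnfsf9 (4-1BB ligand) had 1.96, Tnfsf15 (TL1A) -0.31 and Tnfsf13 (APRIL) -0.64. The order of these 4 was the same under each length, although Tnfsf15 and Tnfsf13 differed by no more than 0.34. Tnfsf12 and Tnfsf13 are adjacent on chromosome 11, from 69686250 to 69695849 and from 69682846 to 69685784, with 0.465 kb between them. A read-through gene, Tnfsfm13, spans both on the same strand and holds 48.3% of the exon bases of Tnfsf12 and 60.1% of those of Tnfsf13. In windows of 100 bases the shares were 44.9% and 54.2%. How reads from these stretches were assigned is not given in the sources used here, and the gap of 3.64 between the neighbours rests on that assignment. For ligand and receptor pairs in the same cells, TWEAK (3.00) stood against Fn14 (6.33), TL1A (-0.31) had no level of its receptor Tnfrsf25 beside it, and 4-1BB ligand (1.96) exceeded 4-1BB (-1.21).

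Among the adaptors 8 of 9, all but Traf1, had a level. Traf4 (5.05) and Traf7 (4.84), whose product lacks the TRAF domain, were the highest. Their order changed with the length: per kb of the principal transcript Traf7 had 5.81 and Traf4 5.72. The TRAFs that bind TNF receptors were lower, with 2.87 for Traf3, 2.59 for Traf2, 2.09 for Traf6 and 1.65 for Traf5. TRAF2 and TRAF3 together hold NIK in check in resting cells. The order among these 4 was not firm, since in the level per kb of the principal transcript Traf2 (3.33) passed Traf3 (2.92) and Traf5 (2.86) passed Traf6 (2.44). Traf4 and Traf7 exceeded each of the 4 under every length, by at least 1.62. Of the death domain adaptors, Tradd was at 3.58 and Fadd at 1.78, and Tradd was higher by 1.80 to 3.30 over the 4 lengths.

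The receptor-interacting kinases differed as well. Ripk3, the kinase of necroptosis, had the highest level of the kinases and ubiquitin ligases, 4.57. It exceeded Ripk1 (2.67), which joins the TNFR1 complex, by 1.76 to 2.17 and Ripk2 (2.35), the adaptor kinase of NOD receptors, by 2.22 to 4.44. The ubiquitin ligases Birc2 (cIAP1) and Birc3 (cIAP2) are neighbours on chromosome 9, 11.6 kb apart. Birc2 had 2.69 and Birc3 1.28, and Birc2 was higher by 0.43 to 1.40 over the lengths. Map3k14, which encodes NIK, was at 2.61, close to Birc2 and Ripk1, and which of these 3 is higher depends on the length.

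Of the IKK subunits, Chuk (IKKα) had a level of 3.93, Ikbkg (NEMO) 2.95 and Ikbkb (IKKβ) 1.77. Ikbke, which encodes the related kinase IKKε and is not part of that complex, had 1.65. Chuk was the highest of these genes under all 4 lengths. The place of Ikbkb was the least certain of the complex. Its annotated exons cover 19078 bases, against 3580 in the principal transcript, and per kb of that transcript its level was 4.18, within 0.29 of Chuk and above Ikbkg (3.20). The 3 subunits of the classical complex therefore lay within 1.27 of each other on that scale and within 2.16 per kb of all exons.

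NF-κB subunits were all listed, and their order was the same under each of the 4 lengths. Rela, on chromosome 19 from 5637483 to 5648130, had a level of 5.50, at percentile 90.7 of all genes. Nfkb2, the p100 and p52 subunit of the alternative branch, lies on the same chromosome from 46304320 to 46312385 and had 4.45. Its exons share 11.6% of their bases with AC114539.1 and 6.52% with Psd, both on the opposite strand. Nfkb1, the p105 and p50 subunit that pairs with RelA, had 2.97. On that gene the length weighed most, since its principal transcript gave 4.52, and the lead of Nfkb2 shrank from 1.48 to 0.48 (0.01 with the median transcript length). Relb was at 2.03, below Rela by 2.83 to 4.61. Rel, the c-Rel subunit best known from lymphocytes, had 0.18, at percentile 12.3. Per kb of all exons Rela thus stood 39.8-fold above Rel and 11.1-fold above Relb.

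The plot of level by gene length shows how far each member moves with this choice. The principal transcript can only raise a level. For 17 of the 53 members (32.1%) the level per kb of that transcript was over 1.5 times that per kb of all exons, against 40.3% of the 10930 genes with such a transcript. Tnfaip8 moved most, from 2.58 to 5.94, followed by Ikbkb and Nfkb1.

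**Figure D3:**
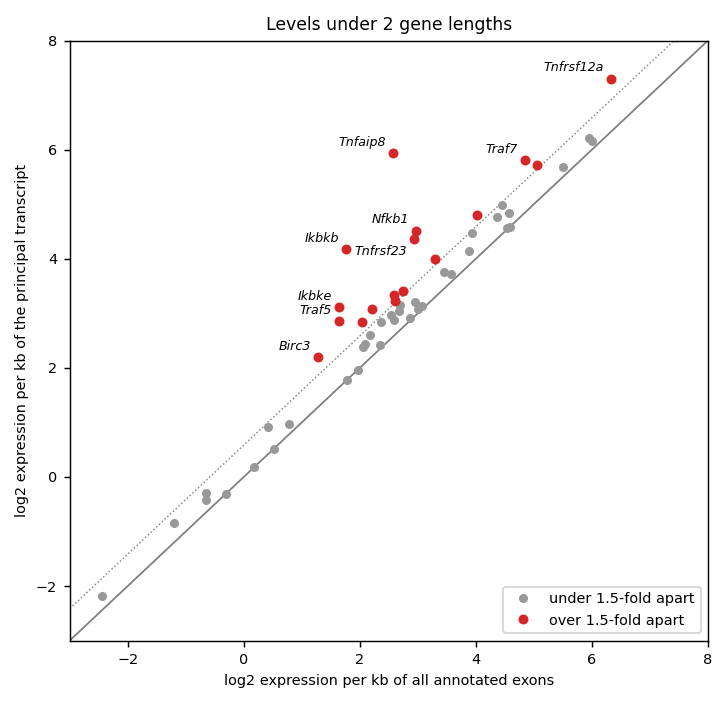
Level of each member per kb of all annotated exons (x axis) and per kb of the principal transcript (y axis), both log2; the solid line marks equality and the dotted line a 1.5-fold difference. The 17 members in red lie above the dotted line, with Tnfaip8 (2.58 and 5.94) and Ikbkb (1.77 and 4.18) among them.

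Inhibitors of NF-κB were led by Nfkbia. Its product IκBα holds RelA dimers in the cytoplasm and is made again after each activation. Its level was 4.54, above Nfkbib (IκBβ, 3.06) by 1.17 to 1.47 and above Nfkbie (IκBε, 2.06) by 2.18 to 2.65. The nuclear members of the family were Nfkbiz (IκBζ) with 2.59 and Bcl3, a partner of p50 and p52 dimers, with 2.18. Bcl3 and Relb lie 179.0 kb apart on chromosome 7, and their levels were 2.18 and 2.03. The difference was 0.15 per kb of all exons and 1.38 with the median transcript length.

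Of 5 feedback regulators all but Tnip3 had a level, between 2.54 and 3.89. Tnip1, which encodes ABIN-1, was at 3.89. Its partner Tnfaip3, which encodes the ubiquitin-editing enzyme A20, was at 3.29. The deubiquitinase Cyld had 2.75 and Tnip2 (ABIN-2) 2.54. Tnip1 and Tnfaip3 changed places with the median transcript length. Of the remaining members Tnfaip2, named for its induction by TNF, had 4.36, and Tnfaip8 2.58. Per kb of the principal transcript their order was reversed, with 4.77 for Tnfaip2 and 5.94 for Tnfaip8.

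Motif matches were counted over all members for which RefSeq starts were at hand, 41 of 53. A broad κB motif of GGG, any 5 bases and CC, on either strand in the 250 bases before any listed start, was found in 32 of them, or 78.0%. It was found in 48.7% of all 27025 genes with a listed start and in 67.8% of the 8845 such genes of the table, whose promoters are richer in GC (median 60.2%) than those of all genes (52.4%). The members had a median of 58.8% GC. With the stricter motif printed above, each match to which is also a match to the broad one, 14 members or 34.1% had a match, against 26.8% of the genes of the table and 19.7% of all. The median level was 2.85 with the stricter match and 2.67 without it, and 2.90 and 1.78 for the broad motif. No test was made of these differences. Nfkb2 had the most matches, 16 to the broad and 5 to the stricter motif over 3 listed starts. Tnfaip3 followed with 6 and 2 over 2 starts. A match before several starts would count for each, but no match of these genes lay so. Overlapping matches at adjacent positions were counted separately, so the broad counts exceed the number of separate stretches. The plot of match positions shows that, among the subunits with a listed start, Nfkb2, Rel and Rela each have a stricter match. A match to these letters is a description of the sequence and shows no binding.

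**Figure D4:**
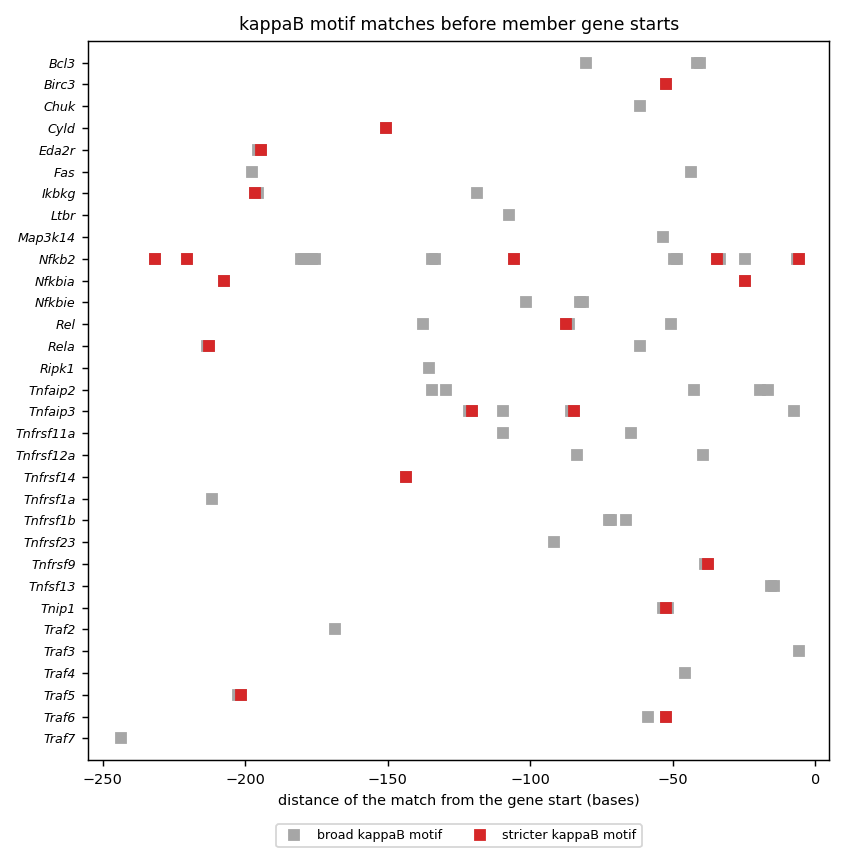
Positions of κB motif matches in the 250 bases before the listed starts of the 32 members with at least 1 match (x axis, bases from the start, matches before all starts of a gene drawn on 1 line); grey, broad motif; red, stricter motif. The 14 members with a red mark include Nfkb2, Nfkbia, Tnfaip3, Tnip1 and Birc3.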

How the data were processed

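RNA of mSSC cultures was sequenced by the study with a stranded mRNA kit. Per the paper's methods and the submitters' processing notes, the authors filtered reads with FastQC, used STAR 2.3.0e to align them to mm10, took gene counts (Rsubread, Ensembl genes) from uniquely mapping reads only, and normalized by the TMM method. The protocol in the labels describes amplification for arrays and qPCR instead. The authors deposited 1 table with decimal commas. Its mean log2 normalized expression over all samples was used. Linear values summed to 989369, close to the total that CPM would give. Its columns of log2 fold change, t, p and adjusted p hold the authors' own comparison and were not used, so the planned test of BMS493 against DMSO was not run.

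Gene lengths and places are from GENCODE M21 (GRCm38, or mm10), in which 11771 symbols (93.5%) had exactly 1 match. Exon lengths, overlaps, windows of 100 bases shared between transcripts, and promoter motifs were computed in Python 3.11.15 with numpy 2.4.6 and pandas 2.3.3. Functions were tested on simulated data. Members and lists were chosen with earlier results of these data known. Named are the extremes of each role, all subunits, IκB proteins, IKK subunits, TRAFs and ligands, and for other lists the 3 highest genes; others were added after their values were seen.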

Additional observations from a re-analysis of the deposited data

How the results depend on the processing

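No paired analysis was possible because only a mean over all cultures was used. The replicate block, leaving out single cultures and the test of BMS493 against DMSO were not run. Relative to the median of all genes, the members' median level was -0.26 per kb of all exons and between -0.38 and -0.22 with the other 3 lengths. The median percentile of the members was 44.6, and ranged from 42.3 (principal transcript) to 48.8 (no division by length, against all 12589 genes; 47.8 against the 11771 genes with a length). The principal transcript, the percentiles with the median transcript length and the comparison with all 12589 genes were chosen after seeing the data. So was the motif count with the first listed start alone. The members above percentile 75 numbered 11, and 9 (median transcript length) to 13 (no division by length, against all 12589 genes) under the alternatives. Those below percentile 25 numbered 10, and 13 with the median transcript length. They numbered 7 once genes whose mean lay under 1 were left out, which also removed 5 of the members. Members with a κB match fell from 32 to 14 with the stricter motif, which can only lower the count, and were 30 with the first listed start alone. Percentiles of single members moved by 10 points or more for 22 of 53 with the median transcript length, for 20 without division by length (against all 12589 genes), for 9 with the principal transcript and for 4 with the longest transcript. Of 140 pairs of members with the same role, 31 changed order under at least 1 of the 3 other lengths. Exons of 17 members share bases with those of another gene on either strand, such as Nfkbib with Ccer2 (14.5%). How reads from such stretches were counted is not given in the sources used here. No depth or spread between cultures can be set beside a level.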

Other observations

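Partners of the pathway that the symbol rule does not cover were also at hand. Of 32 such genes 29 had a level, with a median of 3.04. The highest were Skp1a (6.21) and Cul1 (5.69), parts of the ubiquitin ligase that marks IκB for degradation, and Tab2 (5.16), an adaptor of the kinase TAK1. The F-box subunits of that ligase differed, with 5.01 for Fbxw11 and 0.91 for Btrc, but the gap depends on the length: per kb of the principal transcript they were at 5.12 and 3.42, and with the median transcript length at 5.19 and 3.86. Of 10 superfamily genes with other symbols 1, Relt, had a level (0.38).

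Genes that NF-κB is known to induce were read as well. Of 29 such genes 15 had a level, and 7 of these lay above percentile 75 of all genes. Ptgs2, which encodes cyclooxygenase-2, had 7.32, Csf1 7.01 and Ier3 6.62. The chemokine Ccl2 was at 4.41, whereas Il6 and Cxcl10 were at -0.54 and 0.05. Many other factors also act on these genes, and these levels were measured over both treatments.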
